A study of Mus musculus with 5 samples.

Results

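Solute carriers are the largest group of membrane transport proteins in mammals, and their gene symbols start with Slc followed by a subfamily number. The positions described here come from the authors' lists of differentially methylated CpGs. They are those whose nearest annotated start site belongs to such a gene by its symbol. Slc4a1 and Slc38a4 were left out although their symbols match, and the choice was made with earlier results of these data known. The choice gave 79 of the 4688 listed positions, nearest to 54 of the 2797 genes in the lists and spread over 24 numbered subfamilies. Of these 54 genes, 34 had 1 listed position, 15 had 2 and 5 had 3. Slc9a3r1 entered through its symbol only, since it encodes a scaffold protein that binds ion exchangers and not a carrier.

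The study measured DNA methylation by reduced representation bisulfite sequencing, which reads cytosines near the cut sites of a restriction enzyme and so samples CpG-rich DNA. The cells were common myeloid progenitors sorted by flow cytometry from bone marrow, the precursors of granulocytes, monocytes, erythroid cells and megakaryocytes. The control group held 3 pools of G0 mice with the genotype TERTER/+, labelled as normal, and the other group held 2 pools of G5 mice with the genotype TERTER/ER, labelled as having short telomeres. Every group therefore carried at least 1 copy of TERTER, an allele in which telomerase reverse transcriptase is fused to part of the oestrogen receptor, and the strain background was given as mainly C576BL/6. Each sample was a pool of mice, so the spread between samples is the spread between pools. How many mice made up a pool, and of which age and sex, is not stated in the labels. Per the labels, a sample held 14000 to 30000 cells and gave 29000000 to 38000000 reads. How many reads lie under each level is unknown. The sorted cell type could not be checked by expression, since only methylation was measured. Of 25 marker genes of progenitors, erythroid, lymphoid and mature myeloid cells, 5 had listed positions. In 2 of 8 progenitor genes 1 position was higher and 3 were lower in G5, in 3 of 7 lymphoid genes 3 were higher, and no erythroid or mature myeloid marker was listed. The part of other cells in the results was not tested.

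As background, solute carriers move sugars, amino acids, ions, metals, vitamins and nucleosides across the plasma membrane, and mitochondrial carriers of subfamily 25 do so across the inner mitochondrial membrane. Blood progenitors depend on several of them, for glucose, iron, folate and amino acid supply, while many other members serve kidney, liver, brain or retina. Methylation of CpGs in a promoter island generally accompanies a silent promoter, whereas CpGs in gene bodies and between genes are commonly methylated in expressed and silent genes alike.

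Of the 79 Slc positions 44 were listed as higher in G5 and 35 as lower, so 55.7% were higher, against 55.8% of all listed positions. Among the genes, 25 had only higher positions, 22 only lower ones and 7 had both. Averaged over the 44 higher positions, the control pools measured 36.02%, 38.8% and 36.6%, and the G5 pools 53.3% and 57.1%. That is 37.1% ± 1.48 (SD, n = 3) against 55.2% ± 2.71 (SD, n = 2), a difference of 18.1 points. Over the 35 lower positions the control means were 52.3%, 50.7% and 51.2%, against 35.3% in each G5 pool, a difference of -16.1 points. The median difference of a position among the higher Slc positions was 15.6 points and among the lower ones -15.1, against 16.3 and -16.3 points over all listed positions. These directions and sizes were fixed by the listing, which used the same samples, so they describe the positions and test nothing.

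The groups did not overlap at 38 of the 44 higher Slc positions (86.4%) and at 28 of the 35 lower ones (80.0%). Over all listed positions these shares were 86.9% and 83.9%. In limma's moderated test on the percents, adjusted over all 4688 positions, 15 higher Slc positions (34.1%) and 8 lower ones (22.9%) passed an adjusted p of 0.05, where 33.2% and 33% of all listed positions did. The 23 calls fell on 20 genes. Since the positions were selected for a difference in these samples, the calls are read as a description. They also depended on single pools. Leaving out control pool 1 gave 0 calls, with 20 higher and 15 lower Slc positions still under an unadjusted p of 0.05. Leaving out control pool 3 also gave 0, with 21 and 11 under that p, and leaving out control pool 2 gave 1 call. Over all 4688 positions the fits without control pool 1, 3 or 2 gave 0, 0 and 9 calls. A permutation over 3 and 2 pools cannot give a p below 0.1.

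**Figure D1:**
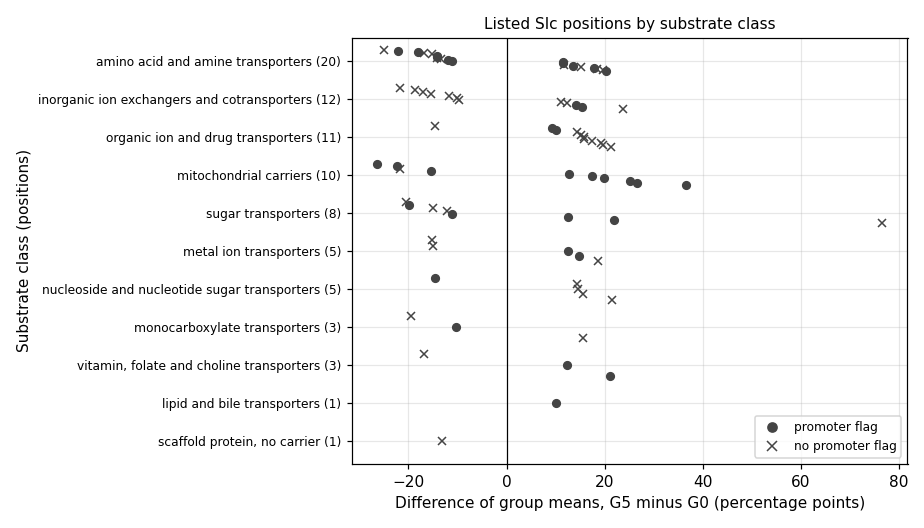
Difference of group means at each of the 79 Slc positions, G5 minus G0 in percentage points, by substrate class, with circles for positions with the promoter flag and crosses for the others. Organic ion and drug transporters had 10 of 11 positions on the higher side, and the Slc2a7 position at 76.6 points stood far to the right of all others.

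By substrate class, amino acid and amine transporters held 20 positions, 9 higher and 11 lower, and ion exchangers and cotransporters held 12, 5 higher and 7 lower. Organic ion and drug transporters had 10 higher and 1 lower position. Mitochondrial carriers had 6 and 4, sugar transporters 3 and 5, metal ion transporters 3 and 2, and nucleoside and nucleotide sugar transporters 4 and 1. The classes follow subfamily numbers, so a few members carry something else than the class name says, and these are named below. No test of a class against the rest was made.

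Mitochondrial carriers of subfamily 25 had 10 positions in 7 genes, and 9 of the 10 carried the promoter flag, which marks positions within 1 kb of a start site. Groups were apart at all 10, and 8 passed limma, 5 higher and 3 lower, where 85.6% of all listed positions were apart and 33.1% passed. Of the 10 positions 7 were X-linked, and 42.2% of all listed X positions passed. Slc25a14 on the X chromosome, which encodes an uncoupling protein of the inner mitochondrial membrane, had 2 higher positions in an untranslated exon part. At chromosome X, 48624048, the G0 pools stood at 16.7%, 41.9% and 24.6% and the G5 pools at 61.8% and 66.7%. At the position 13 bp further the levels were 20.7%, 28.8% and 31.1% in G0 and 54.5% and 52.4% in G5. G0 pool 2 was the highest control at the first and G0 pool 3 at the second, and every G5 pool was above them. Slc25a53, another X-linked mitochondrial carrier, had 2 higher positions 3 bp apart in an intron and a lower one in an untranslated exon part. At the position 117 bp downstream of the start site it stood at 28.6%, 30.8% and 22.3% in G0 and 47.7% and 56.98% in G5, and at 120 bp at 29.7%, 35.5% and 25% in the controls against 45.05% and 50% in G5. All G5 levels were above all controls at both. The lower position, 25 bp downstream, was at 34.2%, 28.4% and 22.2% in the controls against 20.3% and 5.62% in G5, and its difference of -15.4 points was -8.04 without G5 pool 2. The stretches below are shown because they hold the listed CpGs, in capitals, of both X-linked genes.
Slc25a14, chrX:48624042-48624070, plus strand: gggaggcCGcctccttcaggCGcctccct
Slc25a53, intron with the higher CpGs, chrX:137038172-137038200, minus strand: ggtgggatgtcgCGgCGgggtgtctccgg
Slc25a53, exon with the lower CpG, chrX:137038265-137038294, minus strand: ctgggatcgggcccCGtgttgctactgccg

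Slc25a5 and Slc25a43 are also X-linked. Slc25a5, which encodes an ADP/ATP exchanger of the inner mitochondrial membrane, had 1 higher position in its promoter island at 30.4%, 20.97% and 32.4% in G0 and 39.1% and 56.6% in G5. Slc25a43 had 1 lower position on an island shore, at 40%, 36.7% and 34.4% in G0 and 23.2% and 6.25% in G5. So these listed CpGs, 51937 bp apart, went in opposite directions. Both differences were larger in G5 pool 2: without it, Slc25a5 differed by 11.2 points and Slc25a43 by -13.8, against 19.9 and -22.3 with all pools.

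The autosomal mitochondrial carriers had 1 position each. Slc25a28 encodes mitoferrin 2, which brings iron into mitochondria. Its position 52 bp downstream of the start site, in the promoter island, stood at 4.44%, 3.23% and 3.75% in G0 and 16.4% and 16.7% in G5. Both groups were tight, and the means were 3.81% ± 0.611 (SD, n = 3) over the controls against 16.5% ± 0.193 (SD, n = 2) over the G5 pools (limma, adjusted p = 0.0499). Slc25a48 had the largest fall of all Slc positions, -26.3 points, at an intronic position outside an island 843 bp from its start site. There the controls measured 62.8%, 48.1% and 57.6% and the G5 pools 34.4% and 25.3%. The position assigned to Slc25a3, the mitochondrial phosphate carrier, lay 21593 bp upstream of its start site in no annotated gene. It was at 98.1%, 100% and 100% in G0 and 69.6% and 85.7% in G5, and without G5 pool 1 the difference was -13.7 points instead of -21.7. The listed CpGs of Slc25a28 and Slc25a48 show the contrast in CpG content between an island promoter and a sparse intron.
Slc25a28, chr19:43674816-43674845, minus strand: ggacgcaacggggcCGgggggcggcggcag
Slc25a48, chr13:56439183-56439212, plus strand: gttcaccaccaagcCGgagtagttaacaaa

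Amino acid and amine transporters were next, with the sodium-dependent neurotransmitter transporters of subfamily 6 giving 12 positions in 7 genes, 5 higher and 7 lower. Most of these proteins clear transmitters from synapses, and 4 of the genes had promoter positions. Slc6a5, the glycine transporter of inhibitory nerve endings, had 3 positions in coding sequence, all in an island. The one 403 bp downstream was near 0 in controls, at 0%, 1.02% and 1.18%, and at 15.6% and 8.86% in G5. At 148 bp the controls measured 16.7%, 13.6% and 6.90% and the G5 pools 10.6% and 50%, so G5 pool 1 was inside the control range and G5 pool 2 alone was high. The lower position, at 176 bp, was at 19.4%, 14.6% and 20.7% in G0 and 3.49% and 4.49% in G5 (limma, adjusted p = 0.0496). Over both higher positions the difference of 14.7 points became 6.51 points without G5 pool 2 and 22.9 without G5 pool 1.

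Slc6a2, the noradrenaline transporter, had 1 lower position in its promoter island, 305 bp upstream of the RefSeq start site. It stood at 18.3%, 16.2% and 9.71% in G0 and 0% and 1.10% in G5, close to no methylation in both G5 pools. Slc6a11, a GABA transporter on chromosome 6, had 2 lower positions and the groups overlapped at both. At 23805 bp upstream it was at 100%, 97.3% and 95.1% in the controls against 96.4% and 68.3% in G5, and in a coding exon at 92.9%, 81.9% and 92.4% in the controls against 42.2% and 86.1% in G5, so a different G5 pool was low at each.

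Slc6a8 takes up creatine and is X-linked. Its position 551 bp downstream of the start site, on an island shore, stood at 12.4%, 12.2% and 10.98% in G0 and 21.8% and 42.5% in G5. The controls lay within 1.38 points of each other, the G5 pools 20.7 points apart, and the difference of 20.3 points was 9.94 without G5 pool 2 and 30.6 without G5 pool 1. Slc6a4, the serotonin transporter, had positions in both directions 10217 bp apart. The intronic one was lower, at 56.1%, 68.7% and 63.9% in G0 and 48.1% and 44.03% in G5, and the one in a coding exon was higher, at 87.6%, 88.8% and 80% in the controls against 98.6% and 95.96% in G5. The groups were apart at both. The position assigned to Slc6a12, a betaine and GABA transporter, lay in an intron of the gene Iqsec3 and was at 63.4%, 66.98% and 59.1% in G0 and 83.3% and 79.6% in G5.

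Subfamily 7 holds amino acid exchangers and cationic amino acid transporters. Slc7a9, the cystine transporter of kidney and gut, had 2 lower positions 10 bp apart and 449 to 459 bp upstream of its start site, outside an island. The first stood at 20.5%, 32.6% and 38.1% in G0 and 1.72% and 14.6% in G5, the second at 18.2%, 30.2% and 14.3% in the controls against 1.72% and 4.17% in G5. At both the G5 pools were below every control, and both missed limma's threshold with adjusted p of 0.0514 and 0.0542. Slc7a1, a cationic amino acid transporter of many dividing cells and the receptor of ecotropic murine retroviruses, had 2 higher positions 15 bp apart in an intron, 46476 to 46491 bp inside the gene. The nearer one measured 71.8%, 64% and 69.6% in G0 and 87.01% and 89.4% in G5, and the farther one 77.5%, 85.7% and 81.9% in the controls against 94.2% and 99.4% in G5. The nearer one passed limma (adjusted p = 0.0442). Slc38a2, which takes up small neutral amino acids with sodium, had 1 higher position in its promoter island 231 bp upstream, at 0%, 2.22% and 0% in G0 and 14.9% and 9.76% in G5. It was one of the least methylated positions in the controls. Below are the listed CpGs of these genes and of Slc6a2.
Slc7a9, chr7:35448624-35448655, plus strand: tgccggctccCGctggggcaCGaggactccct
Slc7a1, chr5:148353404-148353440, minus strand: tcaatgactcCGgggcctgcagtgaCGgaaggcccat
Slc38a2, chr15:96699914-96699943, minus strand: gaatctaagggatcCGgctccgtaattaca
Slc6a2, chr8:92960728-92960757, plus strand: ccgccacgtgagtgCGctctgcgcgcggga

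Slc7a14, a subfamily member of the nervous system and retina whose start region the gene Gm15496 overlaps, had 3 positions. At 734 bp from the start site, in an island, it was lower, at 4.26%, 11.9% and 17.3% in G0 and 0% and 0% in G5. At 199 bp, on the shore, it was higher, at 3.64%, 8.85% and 3.96% in the controls against 26.7% and 11.2% in G5. The remaining one, 231369 bp upstream, was at 94.7%, 98.8% and 92.1% in the controls against 98.2% and 65.3% in G5, and G5 pool 2 alone was low there. The higher difference of 13.5 points was 5.72 without G5 pool 1 and 21.2 without G5 pool 2. Over both lower positions the difference was -12.3 points, -20.5 without G5 pool 1 and -4.06 without G5 pool 2.

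Among sugar transporters, Slc2a7, a facilitated hexose transporter of the intestine, had the largest difference of any Slc position. At chromosome 4, 150157765, in an intron 8795 bp downstream of its start site, the controls stood at 0%, 39.8% and 0% and the G5 pools at 86.8% and 92.9%. Of the controls 2 read 0 and G0 pool 2 was intermediate, while both G5 pools were almost fully methylated. The difference was 76.6 points (limma, adjusted p = 0.0412), rank 9 of the 2618 higher positions in the lists. A listed position 40 bp further in the same intron was lower in G5, at 89.3%, 91.8% and 85.9% in G0 and 62.6% and 74.2% in G5. In the controls this neighbour was highly methylated in all 3 pools, including those that read 0 at the first CpG. By the numbering of the positions, the 2 listed cytosines lie on opposite strands, so their levels come from different reads. The stretch holds just these 2 CpGs, in capitals.
Slc2a7, chr4:150157756-150157816, plus strand: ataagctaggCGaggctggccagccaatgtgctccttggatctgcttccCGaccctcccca

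Slc2a1, the main glucose transporter of blood and progenitor cells, had 1 lower position, 62940 bp upstream of its start site in no annotated gene. It stood at 14.4%, 30.8% and 27.8% in G0 and 7.14% and 11.8% in G5, and no other listed position was assigned to the gene. Slc2a13, a proton-coupled inositol transporter of the same subfamily, had a higher position in a coding exon and promoter island at 0%, 5.88% and 0% in G0 and 15.9% and 12.96% in G5. Slc45a1, a sugar transporter of the brain, had 2 promoter island positions 31 bp apart in opposite directions. The one 189 bp downstream was at 6.59%, 13.5% and 13.9% in G0 and 27.7% and 38.8% in G5 (limma, adjusted p = 0.0444). The one at 158 bp was at 18.3%, 16.5% and 25.3% in G0 and 4.26% and 13.5% in G5. A further lower position assigned to Slc45a1 lay in an island in an intron of Rere, at 22.2%, 8.33% and 9.09% in G0 and 0% and 2.22% in G5. Slc5a5 belongs to the sodium and sugar cotransporter subfamily but carries iodide into the thyroid. Its shore position 420 bp upstream was at 57.9%, 57.02% and 57.6% in G0 and 26.1% and 49.2% in G5. The controls agreed within 0.877 points while the G5 pools were 23.1 points apart, so that the difference was -8.35 points without G5 pool 1 and -31.4 without G5 pool 2.

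Ion exchangers and cotransporters had 12 positions in 11 genes. Slc24a1, a potassium-dependent sodium and calcium exchanger of rod photoreceptors, had an intronic position at 75%, 72.5% and 70.9% in G0 and 53.1% and 48.98% in G5. With 72.8% ± 2.08 (SD, n = 3) over the controls against 51.02% ± 2.89 (SD, n = 2) over the G5 pools it had the smallest limma p of the lower Slc positions (adjusted p = 0.0416). Slc24a2, its relative of cones and neurons, was also lower in an intron, at 96.9%, 88.7% and 93.02% in the controls against 79.8% and 71.7% in G5. The position assigned to Slc24a5, an exchanger of pigment granules, lay 135515 bp upstream and was higher, at 55.4%, 39.7% and 39.3% in the controls against 57.1% and 80% in G5. Without G5 pool 2 that difference was 12.3 points against 23.8.

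Slc9a7, an X-linked sodium and proton exchanger of the Golgi, had a higher position in a coding exon on an island shore, at 18.9%, 17.6% and 23% in G0 and 31.2% and 39.05% in G5. Slc9a4, a relative of stomach and kidney, had a lower intronic position at 92.98%, 90.2% and 96.6% in the controls against 67.3% and 81.8% in G5. Without G5 pool 1 the Slc9a4 difference was -11.4 points against -18.7. Both genes passed limma, with adjusted p of 0.0497 and 0.0497. Slc4a7, a sodium bicarbonate cotransporter, had a higher promoter island position at 3.85%, 5.88% and 2.38% in G0 and 28.6% and 7.81% in G5. The difference of 14.2 points was 3.78 without G5 pool 1 and 24.5 without G5 pool 2. Slc12a5, the potassium chloride cotransporter of neurons, had 2 island positions in an intron, 61 bp apart. The first was lower, at 14.3%, 8.24% and 13.98% in G0 and 0.990% and 3.95% in G5, and the second was higher, at 5.49%, 13.8% and 12.3% in the controls against 28.6% and 17.1% in G5. Without G5 pool 1 the higher difference was 6.55 points against 12.3. The remaining 4 genes, Slc13a2, Slc13a5, Slc26a9 and Slc41a2, had 1 position each. Each of them had an unadjusted limma p above 0.05, as did the Slc4a7 position and both Slc12a5 positions. Slc13a2 and Slc13a5 carry dicarboxylates and citrate. At Slc13a5 and Slc41a2 the groups overlapped. The Slc41a2 difference of -10.01 points was -0.113 without G5 pool 1 and -19.9 without G5 pool 2. That of Slc13a5, -15.5 points, was -27.8 and -3.13, and that of Slc13a2, 11.2 points, was 5.06 and 17.3. Without G5 pool 1 Slc26a9 differed by -7.36 points against -11.8. Slc9a3r1, the scaffold gene, had 1 lower intronic position at 13.5%, 9.09% and 19.7% in the controls against 0% and 1.92% in G5.

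Organic ion and drug transporters, which serve mainly liver and kidney, leaned to the higher side with 10 of 11 positions. The groups were apart at 63.6% of the 11 positions, against 85.6% of all listed positions. Limma passed 18.2% of them, against 33.1% of all listed positions. The 9 positions of subfamily 22 were all outside promoters and islands, and 8 were higher. Slc22a16, a carnitine and organic cation transporter, had 1 position 19380 bp upstream, at 59.5%, 69.5% and 68% in G0 and 85.5% and 88.5% in G5 (limma, adjusted p = 0.0443). Slc22a19, an organic anion transporter, was assigned 2 positions 11 bp apart that lie in an exon of the noncoding gene Gm16437. Their mean was 54.3%, 60.02% and 67.1% in the G0 pools and 75.2% and 84.6% in the G5 pools. Slc22a12, the urate transporter, was assigned 2 positions on chromosome 19, 1 of them in an intron of Nrxn2. Their means were 63.8% ± 7.10 (SD, n = 3) over the controls against 79.3% ± 7.02 (SD, n = 2) over the G5 pools. At the position outside Nrxn2 the groups overlapped, at 55.4%, 49.04% and 41.5% in G0 and 52.6% and 76.4% in G5. Slc22a7, an organic anion transporter of the liver, had a coding exon position at 13.8%, 19.4% and 10.9% in G0 and 24.4% and 36.8% in G5. At its other position, in the gene Ttbk1, the groups overlapped, at 62.2%, 83.5% and 68.75% in G0 and 95.2% and 82.5% in G5. At Slc22a22, a prostaglandin transporter, both G5 pools read 100% against 79.3%, 85.5% and 92.2% in the controls. Slc22a23 alone was lower, at 69.2%, 58.9% and 61.4% in G0 and 54.02% and 43.2% in G5. Without G5 pool 2 its difference was -9.16 points against -14.6.

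Slc47a1, which exports organic cations and drugs with protons, had 2 promoter island positions at which the groups overlapped. At 164 bp the controls stood at 4.35%, 7.48% and 9.65% and the G5 pools at 1.33% and 32.99%, and at 135 bp at 12.1%, 3.77% and 3.79% in the controls against 8.57% and 23.2% in G5. G5 pool 2 was high at both and G5 pool 1 within or below the controls. The mean difference of 9.66 points turned to -1.91 without G5 pool 2 and was 21.2 without G5 pool 1. The listed CpGs of Slc22a19 are shown because they sit in a CpG-dense stretch that carries no island flag.
Slc22a19, chr19:7668290-7668322, minus strand: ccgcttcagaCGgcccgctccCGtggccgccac

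Metal ion transporters were zinc transporters of subfamily 30 only. Slc30a1, the zinc exporter of the plasma membrane, had a higher position in a coding exon and promoter island, where the noncoding gene 1700034H15Rik overlaps it, at 1.37%, 3.85% and 3.36% in G0 and 11.5% and 19.2% in G5. Slc30a3, which loads zinc into synaptic vesicles, had 2 higher positions. In its promoter island, 912 bp from the start site, it was at 12.6%, 10.4% and 8.70% in the controls against 28.9% and 21.8% in G5 (limma, adjusted p = 0.0496). In an intron outside an island it was at 85.4%, 73.1% and 60.3% in the controls against 95.1% and 87.9% in G5. The 2 lower positions assigned to Slc30a2, a vesicular zinc transporter, lay in exons of Extl1, with means of 46.1% ± 4.20 (SD, n = 3) over the controls against 30.9% ± 10.5 (SD, n = 2) over the G5 pools. The groups overlapped at 1 of them, and the mean difference of -15.1 points was -7.69 without G5 pool 2.

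Monocarboxylate transporters, which move lactate and pyruvate, had 3 positions. Slc16a1, the lactate transporter found in most cells, had a lower position in its promoter island at 17.3%, 8.97% and 11.01% in G0 and 2.73% and 1.41% in G5. The groups were apart, with 12.4% ± 4.34 (SD, n = 3) over the controls against 2.07% ± 0.933 (SD, n = 2) over the G5 pools, and limma gave an adjusted p of 0.0818. Slc16a7 was higher at a position 274799 bp upstream, at 75%, 76.9% and 81.5% in the controls against 92.96% and 93.9% in G5. Slc16a8 was lower at a position in an intron of Baiap2l2. The Slc16a8 difference of -19.5 points was -6.27 without G5 pool 1 and -32.6 without G5 pool 2. Slc35d1, a transporter of nucleotide sugars into the endoplasmic reticulum, had a lower promoter island position that read 0 in both G5 pools against 20%, 12% and 11.6% in the controls. Its adjusted p in limma was 0.0520. The stretches of both promoters are shown with the lower CpG in capitals.
Slc16a1, chr3:104639066-104639095, plus strand: caggtggcggccgcCGggctgcgggagtcg
Slc35d1, chr4:103214468-103214497, minus strand: gacagccccgggacCGgcgcggccgcacgc

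Nucleoside transporters had higher positions only. Slc28a3, which concentrates nucleosides and nucleoside drugs in cells, had 3, of which 1 lay in its intron and the others 57951 and 58010 bp upstream. The 3 averaged 62.4%, 67.05% and 75.3% in the G0 pools and 82.7% and 88.3% in the G5 pools, and the groups were apart at all 3. Their adjusted p in limma ran from 0.0596 to 0.0682. Slc29a3, a lysosomal nucleoside transporter, was assigned 1 position in an intron of Unc5b at 90.5%, 75% and 74.3% in the controls against 94.03% and 94.4% in G5. Slc19a1, the reduced folate carrier that also brings methotrexate into blood cells, had a lower position on an island shore 1036 bp downstream of its start site. It stood at 66.7%, 57.1% and 56.5% in G0 and 37.98% and 48.7% in G5, and the groups were apart (limma, adjusted p = 0.0564). Slc44a4, a choline-like transporter, had 2 higher promoter positions outside an island. At 9 bp from the start site it was at 50.7%, 49.02% and 47.9% in the controls against 52.2% and 71.1% in G5, and at 78 bp at 46.5%, 57.5% and 62.5% in the controls against 75.7% and 77.4% in G5. Slc27a3, an acyl-CoA synthetase of the fatty acid transport family, read 0 in all 3 controls and in G5 pool 2, and 20% in G5 pool 1 only. Its difference of 10 points was therefore 0 without G5 pool 1 and 20 without G5 pool 2.

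**Figure D2:**
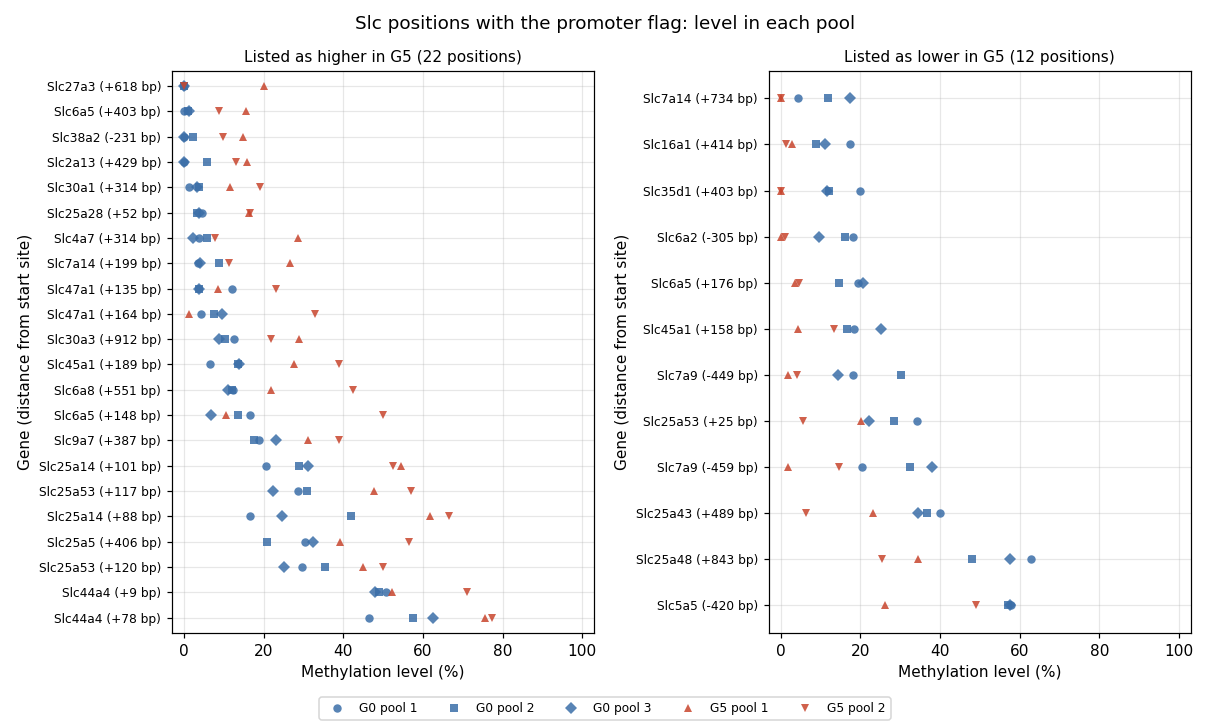
Methylation level in percent at the Slc positions with the promoter flag, except 1 that is not shown, ordered by the G0 mean, in each of the 3 G0 pools (blue) and 2 G5 pools (red). The lower positions are shown on the right, where the G5 pools of Slc7a14 and Slc35d1 read 0, and G5 pool 2 stands apart from G5 pool 1 at Slc6a5 (+148 bp) and Slc47a1 on the left.

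The promoter flag was carried by 35 of the 79 Slc positions (44.3%), against 27.99% of all listed positions, 24.7% of the 81 positions at potassium channel genes and 26.5% of the 34 at other membrane transport genes. Of the Slc promoter positions 22 were higher and 13 lower, and 30 lay downstream of the start site. At the higher promoter positions the controls averaged 14.6%, 16.997% and 15.3%, the G5 pools 29.8% and 34.8%. At the lower ones the controls averaged 26.2%, 25.2% and 26.4%, the G5 pools 9.36% and 10.01%. In autosomal promoter islands the averages were low, while single levels reached 50%, in G5 pool 2 at Slc6a5. The 12 higher positions there averaged 5.18% ± 0.717 (SD, n = 3) over the controls against 18.4% ± 2.48 (SD, n = 2) over the G5 pools, and the 7 lower ones 15.3% ± 1.75 (SD, n = 3) and 2.81% ± 1.07 (SD, n = 2). Slc38a2, Slc2a13, Slc30a1, Slc25a28 and Slc4a7 were among the higher ones, and Slc6a2, Slc16a1 and Slc35d1 among the lower ones, all described above.

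CpG islands held 26 Slc positions (32.9%), against 36.5% of all listed positions. Of the 10 lower island positions 9 were under 20% in both G5 pools, the exception being Slc25a53. In the controls these 10 already averaged 16.1% ± 1.95 (SD, n = 3). Over all 584 listed lower island positions the medians were 6.33% and 6.09% in the G5 pools. The 9 X-linked positions, in Slc25a14, Slc25a53, Slc25a5, Slc25a43, Slc6a8 and Slc9a7, all carried the promoter flag. Their control levels ran from 10.98% to 41.9%, and 7 were higher and 2 lower in G5. Of all 460 listed X positions 185 were higher (40.2%), and 60.9% carried the promoter flag. Over the 7 higher ones the means were 24.5% ± 2.19 (SD, n = 3) over the controls against 47.5% ± 6.35 (SD, n = 2) over the G5 pools. The sex of the pooled mice was not known, so a difference in sex between pools cannot be told apart from one in genotype for these genes.

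**Figure D3:**
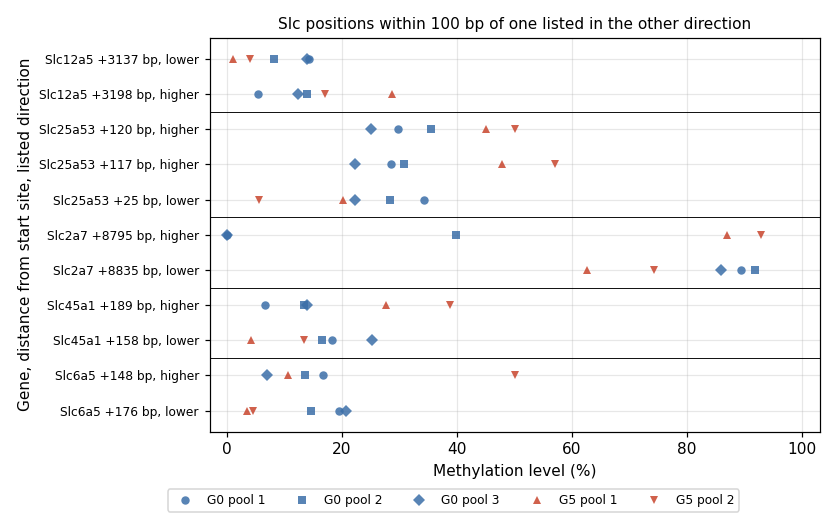
Methylation level in percent, in each of the 3 G0 pools (blue) and 2 G5 pools (red), at the 11 Slc positions that lie within 100 bp of a position listed in the opposite direction. Within each of the 5 genes, the red symbols lie to the right of the blue at one CpG and to the left at its neighbour, except that at Slc6a5 +148 bp G5 pool 1 lies among the controls.

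In 5 Slc genes, CpGs less than 100 bp apart were listed in opposite directions, namely Slc2a7, Slc12a5, Slc25a53, Slc45a1 and Slc6a5. They held 11 of the 79 Slc positions (13.9%), where 142 of the 4688 listed positions (3.03%) had such a neighbour. In 4 of the genes these positions lay in a CpG island, and in Slc2a7 outside one. The listed positions of neighbours were 28 bp apart in Slc6a5, 31 bp in Slc45a1, 40 bp in Slc2a7, 61 bp in Slc12a5 and 92 bp in Slc25a53. The groups were apart at 10 of the 11 positions, the exception being Slc6a5 at 148 bp. Neighbouring cytosines of 1 fragment share reads only where they lie on the same strand. By the numbering of the positions, those of Slc2a7 lie on opposite strands, so their levels come from different reads. At the other pairs, whether single reads carried both states cannot be read from percents per position. The stretches of Slc12a5, Slc6a5 and Slc45a1 show both listed CpGs in capitals with the unlisted CpGs between them.
Slc12a5, chr2:164971113-164971195, plus strand: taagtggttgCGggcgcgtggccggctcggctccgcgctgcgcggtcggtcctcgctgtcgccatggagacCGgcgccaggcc
Slc6a5, chr7:49911836-49911885, plus strand: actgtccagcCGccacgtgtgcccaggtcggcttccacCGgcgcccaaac
Slc45a1, chr4:150651976-150652028, minus strand: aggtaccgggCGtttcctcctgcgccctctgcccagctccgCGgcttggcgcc

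The printed Slc12a5 stretch held 14 CpGs, of which 2 were listed. In Slc6a5 it held 5 and in Slc45a1 6, again with 2 listed. Across all Slc positions, 41 of 79 (51.9%) lay in the sequence CCGG, the cut site of the enzyme usually used in this assay and identical on both strands, against 47.6% of all listed positions. No Slc position was more than 35 bp from such a site. The 200 bp around a Slc position held a median of 9 CpGs, against 10 around all listed positions and 19 around those of potassium channel genes.

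**Figure D4:**
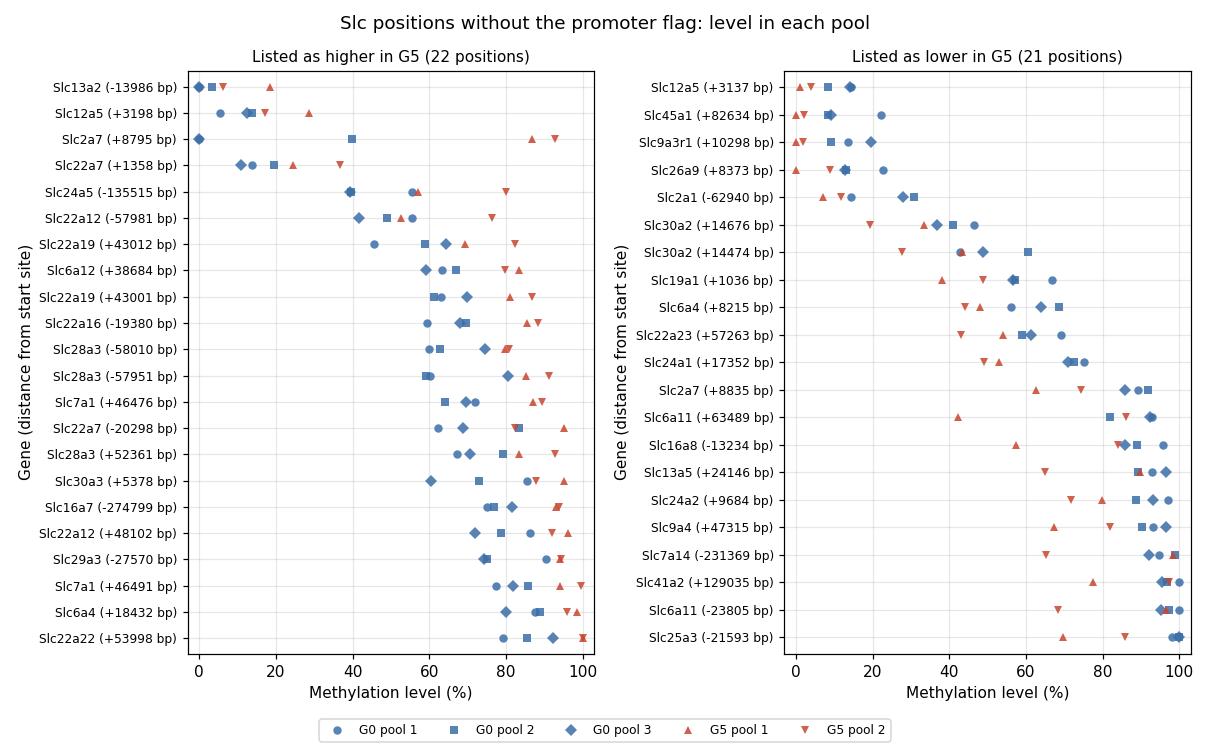
Methylation level in percent at the Slc positions without the promoter flag, except 1 that is not shown, ordered by the G0 mean, in each of the 3 G0 pools (blue) and 2 G5 pools (red). Most started from high levels, and at several of the lower positions with nearly full methylation in the controls, such as those of Slc7a14 and Slc6a11, a single G5 pool was low.

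Away from promoters, the 22 higher positions averaged 58.6% ± 1.73 (SD, n = 3) over the controls against 78.1% ± 1.88 (SD, n = 2) over the G5 pools, and the 22 lower ones 66.4% ± 1.09 (SD, n = 3) and 50.4% ± 0.351 (SD, n = 2). In the GENCODE annotation 52 Slc positions lay inside the gene named, 32 in introns, 12 in coding exons and 8 in untranslated exon parts. The other 27 lay outside it, 11 of them inside another gene and 16 in none, and 16 of the 54 genes had all their positions outside. Of the 27 positions outside, 4 carried the promoter flag, at Slc38a2, Slc5a5 and Slc7a9. At the other 23, among them those of Slc2a1, Slc16a7, Slc24a5 and Slc25a3, the name is that of the nearest start site.

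The G5 pools differed by more than 20 points at 13 Slc positions (16.5%), against 19.2% of all listed positions. The G0 pools did so at 5 (6.33%), against 8.66%. At the higher Slc positions G5 pool 2 lay farther from the control mean at 28 and G5 pool 1 at 15. Over all listed higher positions these counts were 1243 and 1253. At the lower Slc positions they were 14 and 19, against 954 and 993 of all listed lower positions. The widest G5 gaps were 43.9 points at the coding exon position of Slc6a11, 39.4 points at the Slc6a5 position at 148 bp and 32.9 points at the distant position of Slc7a14. The widest control range was 39.8 points at the higher Slc2a7 position. Of the 13 Slc positions at which the groups overlapped, 4 belonged to genes of subfamily 6, among them 2 of Slc6a11 and 1 of Slc6a5, and 2 to Slc47a1.

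A list of 23 Slc genes with a known part in blood cells was drawn up, such as iron, folate, glucose and amino acid carriers. Of these, 3 had a listed position, Slc2a1, Slc16a1 and Slc19a1. All 3 were lower in G5, as were 2070 of the 4688 listed positions. None of the 3 positions passed limma, with adjusted p of 0.0733, 0.0818 and 0.0564. The iron carrier Slc25a28 and the amino acid transporter Slc7a1 were not on that list and were higher, by 12.7 and 17.4 points. The shared direction of the 3 therefore depends on the choice of genes. Other membrane transport genes, meaning organic anion transporters named Slco, ABC transporters, aquaporins and ion pumps, had 34 listed positions in 22 genes, 19 higher and 15 lower. Of these 5 higher and 5 lower passed limma (29.4%, against 33.1% of all listed positions), and the median differences were 17.1 and -15.98 points.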

How the data were processed

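Bisulfite libraries of DNA from sorted cells were sequenced. The submitters' processing notes name Bismark 0.7.11 with Bowtie on mm10 for alignment and calling, and methylKit for the comparison, with Fisher's exact test per the series' design text. The authors deposited 2 tables, for the higher and for the lower positions. Per the file headers they hold the percent methylation of each pool, the authors' p-value and q-value, a difference score in percentage points, annotation flags and the signed distance to the nearest RefSeq start site. All q-values were under 0.01 and all absolute differences over 10 points. Positions that did not pass, read counts and coverage were not analysed here, so no counting interval is given and no test of methylated counts was made. The labels' promoter window starts 1 kb before the start site and ends 500 bp after it, but in the files the flag marked every listed position within 1 kb on either side and no other, 281 of them over 500 bp downstream.

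The members and gene lists were chosen with earlier results of these data known. Group means and SDs were taken over pools. Limma 3.58.1 (R 4.3.3) was fitted on the percents of all 4688 listed positions with Benjamini-Hochberg adjustment, and tested on simulated data. Other steps used Python 3.11.15, pandas 2.3.3, numpy 2.4.6, pysam 0.24.0 and matplotlib 3.10.9. Single positions keep the files' numbers, which count from 0. Read that way against GRCm38, the assembly of mm10, each of the 4688 fell on a CpG. Of these, 2356 fell on the plus-strand cytosine and 2332 on the minus-strand cytosine, so each level is that of 1 strand. Sequences come from the RefSeq assembly GRCm38.p6, are counted from 1, run 5′ to 3′ on the strand of the gene named and show listed CpGs in capitals. Genes around positions come from GENCODE.

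Described by gene were the 35 genes with 3 or more positions, a promoter position, positions in both directions, one of the 5 largest differences per direction or a place on the list of blood cell carriers. Values of the remaining 19 genes are also given, for some of them as differences or means only. These genes fall outside that rule, and which of their values to print was chosen after the values were seen. For 1 of the 35 genes the values are not reported here; its positions stay in the counts and means. Alternatives were each pool left out, other scales and variance models, the replicate number as a block, autosomes only, 1 value per CpG, stricter thresholds, the distance to the start site, clusters within 1 kb and, chosen after seeing the data, leaving out Slc2a7 or Slc9a3r1.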

Additional observations from a re-analysis of the deposited data

How the results depend on the processing

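The counts of limma calls depended most on the processing. With 1 control pool left out, the 15 higher Slc calls became 0 or 1 and the 8 lower ones 0. The same fits called 0 to 9 of all 4688 listed positions. Leaving out a G5 pool leaves 1 in that group, so calls of those fits are not given. Calls on autosomes numbered 8 and 5. With percents as log2 ratios, limma called 20 higher and 16 lower Slc positions, and 1937 of all 4688 listed positions. With a variance trend it called 21 higher and 13 lower ones, and 2315 of all listed positions. The pools share replicate numbers with no stated pairing, and deviations from the group means correlated by 0.0124 for pool 1 and 0.0476 for pool 2 across listed positions. With the replicate number as a block, limma called 0 higher and 0 lower Slc positions, and 0 of all listed positions. In that fit 14 higher and 9 lower Slc positions had an unadjusted p under 0.05. The causes were not tested.

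Both mean differences kept their direction, which the listing on the same samples had fixed. That of higher positions was 15.6 points as a median and 22.1 points at q under 0.001, and 16.1 to 19.98 points with a pool left out. That of lower positions was -15.1 points as a median and -15.7 to -16.5 points with a pool left out. The number of higher and lower positions was 19 and 11 at a q-value under 0.001, 12 and 7 at 20 points or more, and 26 and 19 within 10 kb of the start site. Of 42 pairs of gene and direction, 39 differed by over 10 points with all pools and 34 to 40 with a pool left out. The listing itself required over 10 points in these pools, so these counts describe the values and test nothing. Slc47a1 alone turned sign, to -1.91 points without G5 pool 2, against 21.2 without G5 pool 1. Depth behind single levels is unknown.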
